A study of Danio rerio with 4 samples.

Results

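Loss of 2 Nr2f genes was set against an intended gain of one of them in the cells that build the zebrafish (Danio rerio) jaw, by RNA-seq of sorted pharyngeal arch cells. The comparison uses 3 of the 4 libraries of the series and all 31953 genes of its table. On the loss side are 2 libraries, called mutant 1 and mutant 2, from embryos mutant for both nr2f2 and nr2f5. The labels name no allele for either gene. On the gain side is 1 library from embryos with the sox10:Gal4 driver and the UAS:Nr2f5 effector, a pair in which Gal4, made in the neural crest, is meant to switch on Nr2f5. The remaining library, from embryos with sox10:Gal4 alone, is the control. It took no part in the comparison and is given only as a level beside the others.

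In each library the cells had been sorted for fli1a:GFP, active in arch crest and in blood vessels, together with sox10:DsRed, active in the crest lineage. Embryos grew at 28.5 °C until 27 hours post-fertilization (hpf) and then at 22 °C, and were taken at the 36 hpf stage. Each library pools many embryos. The mutant pools held 37 and 84 embryos, giving 18858 and 30655 cells, but the labels do not say which pool is which replicate. The library labelled UAS:Nr2f5 came from 84 embryos and 56866 cells, and the control from 69 embryos and 86517 cells. Mutants were picked by ocular coloboma, a cleft of the eye, whereas the Gal4 embryos were genotyped from a fin biopsy at 24 hpf. The labels give neither the driver nor the biopsy for the mutants, so driver, biopsy and genotype cannot be told apart.

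Nr2f proteins, the COUP-TF family, are orphan nuclear receptors that bind DNA and often repress transcription. In the arches, Endothelin 1 and Bmp signals from the ventral side switch on nested Dlx genes and hand2, which give lower jaw character, and Notch signalling through Jagged1b acts on the dorsal, upper jaw side. The title of the series places Nr2f factors on the side of the upper jaw. Setting loss against gain asks which genes lie furthest apart between those opposite manipulations.

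The targeted genes were read first, although an RNA level cannot by itself check a mutant genotype. nr2f5 was at 12.2 and 14.7 in the mutants, against 30.3 in the library labelled UAS:Nr2f5, with 28.8 in the control, all in RPM (a gene's reads in every 1000000, an assumed scale). Its difference, mutants minus that library, was −1.12 ± 0.20 on the log2(RPM + 1) scale, the estimate ± its standard error, with a limma adjusted p of 0.0287. nr2f5 thus lay apart between the groups, but its level with the UAS transgene was close to that of the driver alone. The files do not show whether the reads of a UAS transgene would be counted under nr2f5. Here and throughout it is therefore called the library labelled UAS:Nr2f5. For nr2f2 the mutants had 38.9 and 30.9 RPM, against 28.1 in that library and 41.4 in the control, and did not pass (0.29, limma adjusted p = 0.345).

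The other Nr2f genes are the closest relatives of those 2 genes. nr2f1b rose, at 29.8 and 37.1 RPM in the mutants, against 18.3 in the library labelled UAS:Nr2f5 (0.83 ± 0.20, limma adjusted p = 0.0490). The control had 29.9 RPM, which lies inside the mutant pair. nr2f1a was at 54.6 and 55.1 RPM against 41.3, nr2f6a at 19.6 and 20.8 against 19.4, and nr2f6b at 9.20 and 12.2 against 6.62, and none of these 3 passed. The mutant levels of all 4 were above that library, by amounts that for nr2f6a came to 0.06. When libraries were scaled to arch mesenchyme genes, as described further on and called the arch mesenchyme scaling, nr2f1b was instead lower (−0.33), as were nr2f1a (−0.79), nr2f2 (−0.88) and nr2f6a (−1.10), and nr2f5 stood at −2.28.

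Over the 11349 genes that averaged 1 RPM or more in the 3 libraries, limma called 1976 genes, or 17.4%, at an adjusted p under 0.05. Of these, 1050 (9.25%) were higher in the mutants and 926 (8.16%) lower. Scaling the libraries by their median ratio made that split 603 and 1048, and the arch mesenchyme scaling 412 and 5829. The 2 directions differed in size. The median higher call was 1.39 on the log2(RPM + 1) scale and the median lower call −2.05, and 73 genes fell by 4 or more, where 0 rose by as much. By a rule of size alone, 2145 genes (18.9%) were at least 2-fold apart in both mutants, 1024 higher (9.02%) and 1121 lower (9.88%). Both rules together named 755 higher and 902 lower genes. The median gene lay at 0.17, so that small positive differences were common.

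These calls rest on little replication. The only spread that the test can see is that of the mutant pair, and the lone library labelled UAS:Nr2f5 is assumed to vary like it. The labels do not say that the mutant libraries came from separate clutches, so the p-values measure the spread between these 2 samples, which may be technical. That spread was small. Between the mutants, 330 genes (2.91%) were 2-fold apart, while 24.5% and 26.8% were 2-fold apart between mutant 1 or mutant 2 and the library labelled UAS:Nr2f5. That library was also the shallowest, with 10127921 implied reads, where the mutants had 34787207 and 22677741. Implied reads counted in genes were fewer, 1498321 in that library against 5286229 and 3590906 in the mutants. With no filter on low values 0 of 21253 genes passed limma, the smallest adjusted p being 0.119, although 5405 had an unadjusted p under 0.05. Without the trend term in limma 494 genes passed as higher and 740 as lower.

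The genes that rose most included many arch patterning factors. Genes were ranked by difference among called genes that averaged 5 RPM or more and carried no clone name. The first 15 included dlx6a, dlx5a, dlx4b, dlx4a, hand2, nkx3.2 and barx1. The first 15 in the other direction were genes of muscle, for the contractile filaments, for calcium handling (atp2a1, pvalb1 and pvalb2) and for creatine kinase (ckma and ckmb). Each end is described in turn, starting with the arch genes. Counts within a list stand beside the 9.25% of all genes tested that rose and the 8.16% that fell.

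Dlx genes encode homeodomain factors whose overlapping domains mark dorsal, intermediate and ventral positions within an arch. All 7 of the measured members passed, and all 7 were higher in the mutants, with a list median of 2.89 against 0.17 for all genes. An eighth, dlx2b, had too few reads to be tested. dlx6a, which lies beside dlx5a in the genome and is active with it in the ventral arch, was at 14.4 and 12.9 RPM in the mutants, against 0 in the library labelled UAS:Nr2f5, with 4.27 in the control. Set against the 3 reads that a count of 0 still allows (0.296 RPM), the mutants were at least 46.0-fold higher, with a limma adjusted p of 0.00936. dlx4b was also at 0 there, against 10.3 and 5.82 RPM in the mutants, at least 27.1-fold higher (limma adjusted p = 0.0175). With both zeros set to that limit, the list median was 2.76.

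dlx5a, which acts downstream of Endothelin 1, was at 36.2 and 28.1 RPM in the mutants, against 2.37 in the library labelled UAS:Nr2f5 (3.29 ± 0.23, limma adjusted p = 0.0081). dlx4a was at 20.8 and 18.3 RPM against 1.78 (2.89 ± 0.23), and dlx3b, a mark of the intermediate domain, at 16.6 and 13.2 against 2.27 (2.27 ± 0.26). In each of these the mutant libraries lay far above that library and close to one another. The 2 genes of the whole dorsoventral extent of the arch differed less. dlx2a was at 30.4 and 24.6 RPM against 8.10 (1.64 ± 0.21), and dlx1a at 11.8 and 11.6 against 5.33 (1.00 ± 0.23, limma adjusted p = 0.0427). The members were thus ordered, with the ventral and intermediate Dlx genes further apart than dlx1a and dlx2a, though that order was not tested. Summed over the list, Dlx genes held 141 and 115 RPM in the mutants, against 20.8 in the library labelled UAS:Nr2f5 and 90.8 in the control.

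**Figure D1:**
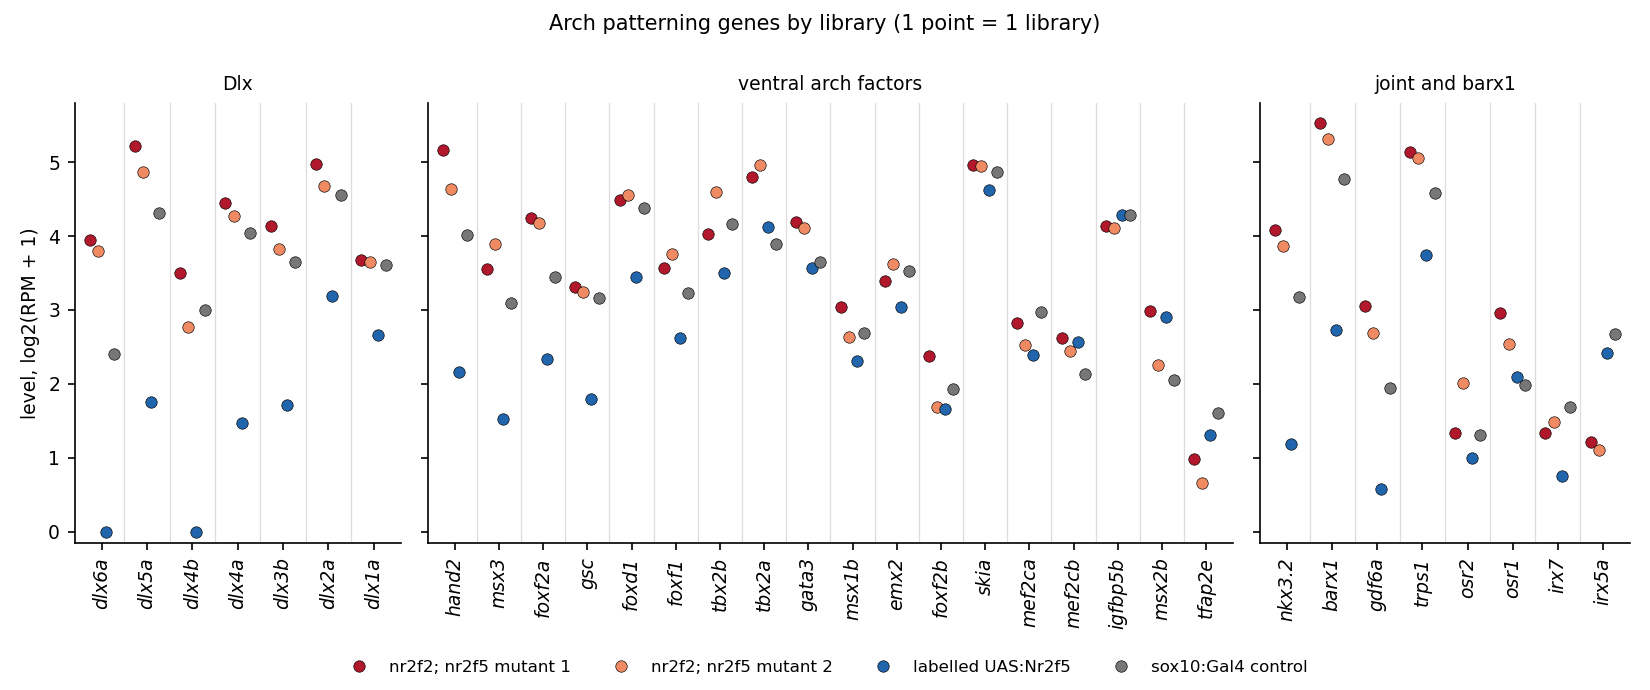
Levels of measured Dlx genes, ventral arch factors and joint genes in each library, as log2(RPM + 1), with 1 point per library and genes ordered within a panel by their difference. For dlx6a and dlx4b the library labelled UAS:Nr2f5 sits at 0, while both mutants are at 5.82 RPM or more, and toward the right of the ventral panel the points overlap.

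The ventral arch factors include transcription factors that set lower jaw character or the outgrowth of its tip. Of the 19 measured, 8 rose and 0 fell, with a median of 0.58 (−0.49 under the arch mesenchyme scaling). hand2, the bHLH factor that represses Dlx genes at the ventral tip, was at 34.8 and 23.8 RPM in the mutants, against 3.46 in the library labelled UAS:Nr2f5, with 15.2 in the control (2.74 ± 0.28, limma adjusted p = 0.0121). Both mutants lay above the control for hand2, and the control above the library labelled UAS:Nr2f5.

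The homeobox gene msx3, listed in the table as msxc, was at 10.8 and 13.8 RPM in the mutants, against 1.88 in the library labelled UAS:Nr2f5 (2.20 ± 0.29). The forkhead gene foxf2a was at 17.9 and 17.02 RPM against 4.05 (1.87 ± 0.21), and gsc, a homeobox gene of the arch mesenchyme, at 8.88 and 8.47 against 2.47 (1.48 ± 0.28). foxd1, foxf1 and tbx2a also passed, at 0.75 to 1.08. The remaining 11 did not. Among them gata3 was at 17.3 and 16.3 RPM against 10.9, mef2ca, a transcription factor gene of the Endothelin response, at 6.07 and 4.76 against 4.25, and emx2 at 9.46 and 11.3 against 7.21. msx2b, listed as msxd, was at 6.96 and 3.79 RPM against 6.52, so that the library labelled UAS:Nr2f5 fell inside the mutant pair.

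Genes of the jaw joint and of the intermediate arch showed a split. Of 8 measured, 4 rose and 0 fell, with a median of 1.02 (0.12 under the arch mesenchyme scaling, and 2.69 over the members that averaged 5 RPM or more). nkx3.2, the homeobox gene needed for the jaw joint, was at 15.95 and 13.6 RPM in the mutants, against 1.28 in the library labelled UAS:Nr2f5 and 8.05 in the control (2.78 ± 0.26, limma adjusted p = 0.0109). barx1, which favours cartilage over joint, was at 45.1 and 38.9 RPM against 5.63 (2.69 ± 0.19, limma adjusted p = 0.00778). nkx3.2 and barx1, which mark opposite tissue choices, were therefore higher in the mutants by about the same amount. The growth factor gene gdf6a was at 7.33 and 5.47 RPM against 0.494 (2.297 ± 0.37), and trps1, a zinc finger repressor of skeletal development, at 34.2 and 32.4 against 12.4 (1.35 ± 0.17).

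The Iroquois gene irx5a had the opposite sign, at 1.32 and 1.15 RPM in the mutants, against 4.34 in the library labelled UAS:Nr2f5 and 5.41 in the control, without passing (−1.26, limma adjusted p = 0.0620). Its partner at the hyoid joint, irx7, was at 1.52 and 1.81 RPM against 0.691 (limma adjusted p = 0.190). The Osr genes osr1 and osr2 did not pass either.

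Of 6 measured components of Endothelin signalling itself, 0 passed limma in either direction and 2 had an unadjusted p under 0.05. Under the arch mesenchyme scaling 0 were higher and 3 lower, ednraa (−1.26), furina (−1.36) and gna11b (−0.73), with a list median of −0.80. The receptor gene ednraa was at 19.1 and 20.5 RPM in the mutants, against 21.3 in the library labelled UAS:Nr2f5 and 19.7 in the control. The protease gene furina, whose product processes the ligand, was at 17.3 and 21.6 RPM against 22.4. For furina and ednraa the groups lay closer together than for the Dlx genes, with differences of −0.20 and −0.10. The G protein and effector genes gna11a (7.53 and 9.75 RPM against 4.25) and plcb3 (9.57 and 10.3 against 5.33) were higher by 0.87 and 0.79 without passing. The ligand gene edn1 had 0.144 and 0 RPM in the mutants, against 0 in the library labelled UAS:Nr2f5, and was too low to test.

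Upper jaw genes, taken from the dorsal arch programme and the Notch pathway, gave 3 higher and 0 lower calls among 13, with a median of 0.41 (0 higher, 7 lower and −0.79 under the arch mesenchyme scaling). The receptor gene notch2 was at 170 and 161 RPM in the mutants, against 61.9 in the library labelled UAS:Nr2f5 (1.40 ± 0.16, limma adjusted p = 0.0126). The repressor gene her6 was at 220 and 245 RPM against 107 (1.11 ± 0.18, limma adjusted p = 0.0228), and the homeobox gene six1a at 17.02 and 18.6 against 8.89 (0.93 ± 0.20, limma adjusted p = 0.0384). In the mutants notch2 and her6 were also above the control, at 98.8 and 163 RPM.

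The genes most closely tied to dorsal identity did not pass. jag1b, the dorsal Notch ligand, was at 35.3 and 40.6 RPM in the mutants, against 30.6 in the library labelled UAS:Nr2f5 (0.30, limma adjusted p = 0.276). Its target hey1 was at 83.9 and 85.1 RPM against 63.5 (0.41, limma adjusted p = 0.129). The POU gene pou3f3b, a mark of the dorsal arch, leaned the other way, at 26.6 and 29.2 RPM in the mutants, against 44.2 in the library labelled UAS:Nr2f5 and 33.9 in the control (−0.65, limma adjusted p = 0.0566). Its paralogue pou3f3a was at 13.0 and 15.3 RPM against 11.7, and the control, at 18.5, was above both groups. eya1 (30.1 and 34.3 RPM against 28.1), notch3 (76.6 and 85.1 against 102) and six1b (10.8 and 15.3 against 16.5) did not pass.

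The Notch list as a whole ran the other way from its upper jaw members. Of 23 measured, 2 rose and 9 fell, with a median of −0.49 (0 higher, 18 lower and −1.60 under the arch mesenchyme scaling). The 2 that rose, notch2 and her6, are among the 7 genes that the Notch list shares with the upper jaw list. The ligand gene dla was at 5.12 and 4.89 RPM in the mutants, against 34.5 in the library labelled UAS:Nr2f5 and 28.2 in the control (−2.56 ± 0.22, limma adjusted p = 0.00966). The receptor gene notch1b was at 13.3 and 12.7 RPM against 71.8, with 70.5 in the control (−2.38 ± 0.17, limma adjusted p = 0.0081). dld (5.72 and 2.29 RPM against 20.5), dlb (5.06 and 6.04 against 25.9) and jag1a (1.75 and 3.62 against 13.8) fell as well. For these ligands and notch1b, the control sat near the library labelled UAS:Nr2f5 and far from either mutant. dlc did not pass (1.32 and 3.62 RPM against 10.2, limma adjusted p = 0.0679).

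The other 4 Notch genes that fell, chosen after their values were seen, were notch1a (20.6 and 23.4 RPM in the mutants, 56.7 in the library labelled UAS:Nr2f5), the glycosyltransferase gene lfng (7.50 and 9.92 against 30.3), the feedback gene nrarpb (3.28 and 3.48 against 11.9) and the repressor gene her12 (1.61 and 0.661 against 7.31). Many of these are expressed where neurons form. Genes of neurons, summed over their list, were at 63.0 and 63.7 RPM in the mutants, against 249 in the library labelled UAS:Nr2f5 and 211 in the control, and genes of neural progenitors and glia at 16.2 and 16.1 against 101 and 104. Their part in the Notch result was not tested.

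**Figure D2:**
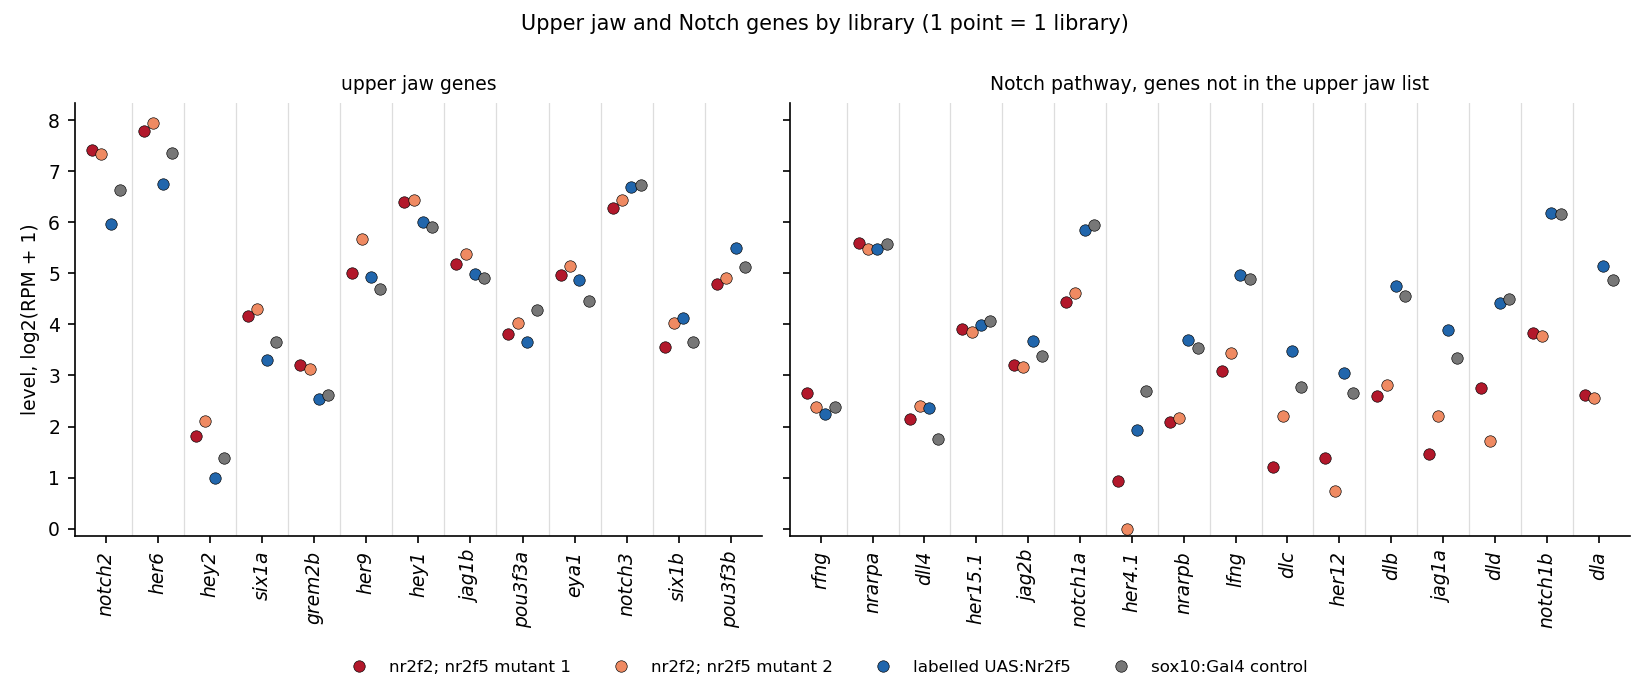
Level of each upper jaw gene and of each further Notch gene in each library, as log2(RPM + 1), with 1 point per library. In the left panel the libraries lie close together except at notch2, her6 and six1a, and in the right panel the mutants lie below both other libraries from notch1a onward.

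Other signalling lists held more higher than lower calls. In the Bmp list 7 of 26 rose and 0 fell, with a median of 0.54 (2 higher, 11 lower and −0.58 under the arch mesenchyme scaling). The receptor gene bmpr1ba was at 10.9 and 14.5 RPM in the mutants, against 2.47 in the library labelled UAS:Nr2f5 (1.97 ± 0.29, limma adjusted p = 0.0180), and the antagonist gene nog2 at 11.3 and 11.4 against 2.47 (1.83 ± 0.25). smad5, a transducer of the signal, was at 18.5 and 20.1 RPM against 6.12, and its direct targets id2a and id1 at 21.8 and 22.3 against 10.1 and at 137 and 102 against 58.6. Receptor, transducer, target and antagonist genes thus had members among the 7 that rose, while 19 genes did not pass. Under the arch mesenchyme scaling bmpr1ba (0.98) and nog2 (0.85) passed as higher. smad5 (0.41), id2a (−0.07) and id1 (−0.20) did not pass there.

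In the Fgf list 6 of 16 rose and 0 fell, with a median of 0.80 (1 higher, 5 lower and −0.21 under the arch mesenchyme scaling). The transcriptional targets etv4 (6.58 and 7.58 RPM in the mutants, 2.17 in the library labelled UAS:Nr2f5), etv5b (23.5 and 32.0 against 12.2) and dusp6 (48.8 and 52.9 against 25.4) passed, as did the receptor genes fgfr1b (14.1 and 11.9 against 4.84) and fgfr1a (35.3 and 36.0 against 17.2). These 5 were higher by 0.97 to 1.35, but dusp6 (−0.20), etv5b (−0.04) and fgfr1a (−0.15) turned negative under the arch scaling. The receptor genes fgfr2, fgfr3 and fgfr4 and the feedback targets spry1, spry2 and spry4 were among the 10 that did not pass. The sixth gene to rise was the ligand gene fgf10a, chosen after its values were seen, which had 1 read in the library labelled UAS:Nr2f5. Pooled over the mutants its ratio was 31.4, with an exact 95% interval of 5.56 to 1246 that covers counting error only.

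In the Hedgehog list 4 of 17 rose and 0 fell, with a median of 0.40 (2 higher, 10 lower and −0.75 under the arch mesenchyme scaling). gpr161, a ciliary receptor that holds the pathway in check, was at 6.78 and 8.29 RPM in the mutants, against 1 read (0.0987 RPM) in the library labelled UAS:Nr2f5, a ratio of 74.7 (exact 95% interval 13.3 to 2958, limma adjusted p = 0.0129). The co-receptor gene gas1b was at 7.99 and 11.2 RPM against 1.28 (2.19 ± 0.33), and the transcription factor genes gli2a and gli2b at 46.6 and 38.6 against 19.1 and at 30.9 and 28.3 against 13.4. The readout gene gli1 was at 22.1 and 20.6 RPM against 13.5 and did not pass (limma adjusted p = 0.0743).

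In the retinoic acid list 4 of 16 rose and 1 fell, with a median of 0.28 (0 higher, 7 lower and −0.70 under the arch mesenchyme scaling). The receptor gene rargb was at 19.6 and 15.4 RPM in the mutants, against 4.84 in the library labelled UAS:Nr2f5 (1.65 ± 0.24), the carrier gene crabp2b at 29.1 and 30.6 against 8.99 (1.63 ± 0.18), the degrading enzyme gene cyp26b1 at 15.7 and 14.02 against 5.43, and rarga at 44.7 and 54.1 against 26.6. The gene that fell was rdh10a, an enzyme of retinal synthesis, at 0.632 and 0.529 RPM against 3.75 (−1.59 ± 0.30, limma adjusted p = 0.0314). Of 14 Wnt genes (1 higher, 6 lower and a median of −0.69 under the arch mesenchyme scaling) only the inhibitor gene nkd2a passed as deposited, at 7.47 and 7.41 RPM against 0.395 (2.60 ± 0.33), while the feedback gene axin2 was at 28.4 and 26.8 against 20.04. That 1 call among 14 was near the share of all genes tested that rose, 9.25%.

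In the guidance and matrix signalling lists higher calls outnumbered lower calls as deposited. In the semaphorin and neuropilin list 6 of 17 rose and 2 fell, with a median of 0.68 (2 higher, 6 lower and −0.35 under the arch mesenchyme scaling). sema3fb, a secreted guidance cue, was at 15.5 and 21.2 RPM in the mutants, against 3.06 in the library labelled UAS:Nr2f5 (2.24 ± 0.27), and the co-receptor gene nrp1a at 50.6 and 59.1 against 17.6 (1.58 ± 0.18). Its paralogue nrp1b fell, at 3.88 and 5.16 RPM against 14.02 (−1.45 ± 0.29, limma adjusted p = 0.0337), as did sema3gb. Among 18 genes of Igf and Tgf-beta matrix signalling, 5 rose and 2 fell, with a median of 0.62 (1 higher, 7 lower and −0.47 under the arch mesenchyme scaling). ctgfb was at 8.91 and 8.91 RPM against 1.18 (2.18 ± 0.30) and igf2b, a growth factor gene, at 35.6 and 36.7 against 12.8 (1.42 ± 0.17). The binding protein genes igfbp1a and igfbp3 fell, igfbp1a standing at 0.575 and 0.441 RPM against 5.04. In each of these lists the 2 lower calls were near the share of all genes tested that fell, 8.16%.

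The sorted cell type was checked against its own markers. The defining genes of arch mesenchyme were present in every library. prrx1a was at 48.9 and 50.0 RPM in the mutants, against 27.0 in the library labelled UAS:Nr2f5, prrx1b at 46.3 and 38.7 against 31.6, twist1a at 35.4 and 41.6 against 15.11, and pdgfra at 130 and 137 against 66.5. fli1a, whose regulatory sequence drives the GFP used in the sort, was at 51.5 and 48.1 RPM against 17.97. Of 15 genes in the list, 10 rose and 0 fell, with a median of 1.24. Summed, they held 645 and 631 RPM in the mutants, against 305 in the library labelled UAS:Nr2f5 and 469 in the control. In bulk RNA, fewer cells of a type and less RNA per cell cannot be told apart.

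Of 14 early neural crest genes, 7 rose and 0 fell, with a median of 0.94, which became −0.16 under the arch mesenchyme scaling. 5 of the genes in that list also stand in the arch mesenchyme list. sox10, whose regulatory sequence drives the DsRed of the sort and the Gal4, was at 17.4 and 24.9 RPM in the mutants, against 5.73 in the library labelled UAS:Nr2f5, with 8.72 in the control (1.70 ± 0.27, limma adjusted p = 0.0218). snai2, a factor of the epithelial-to-mesenchymal transition, was at 45.8 and 37.2 RPM against 11.2 (1.799 ± 0.20). foxd3, a defining gene of early crest, was low in both groups, at 2.09 and 2.76 RPM against 2.67, and crestin was not matched to the table.

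**Figure D3:**
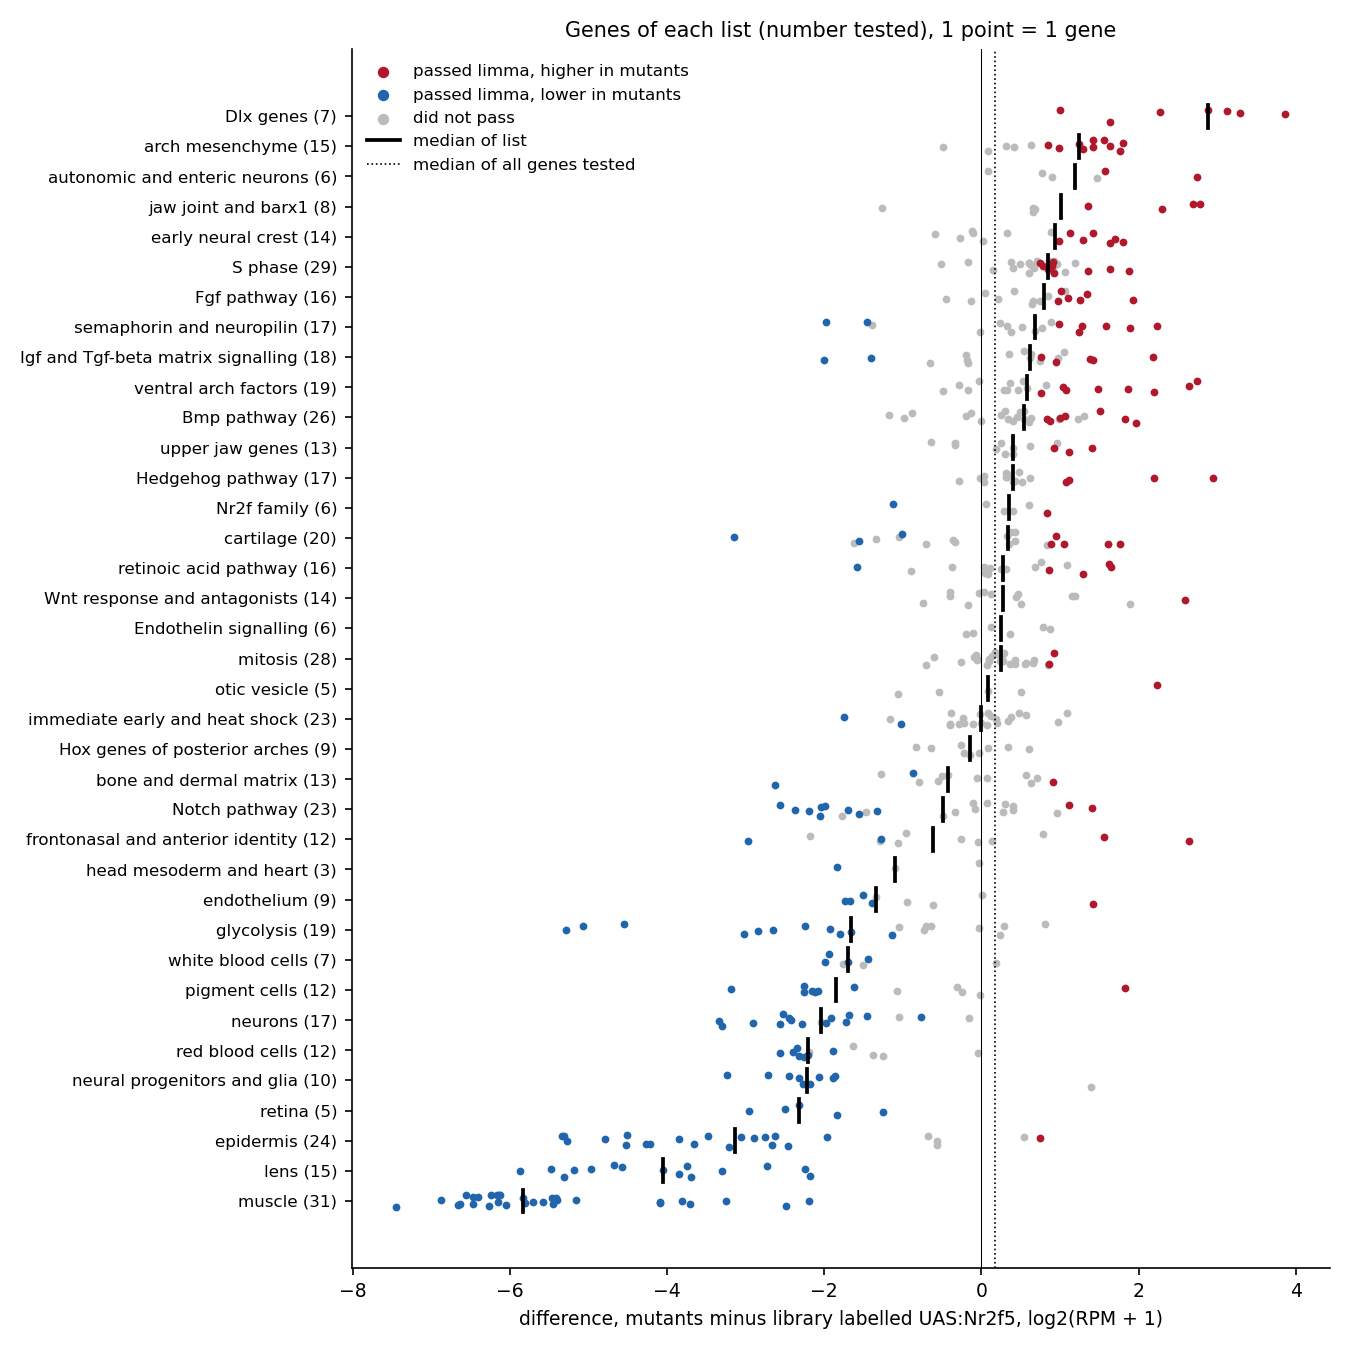
Difference of each measured gene, mutants minus the library labelled UAS:Nr2f5, on the log2(RPM + 1) scale, by list, with the number tested in parentheses. Dlx genes lie to the right, with a median of 2.89, and muscle, lens and epidermis far to the left, with medians of −5.84, −4.06 and −3.14, against a median of 0.17 for all genes (dotted line).

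At the other end, genes of several cell types that the sort was meant to leave out were far lower in the mutants. All 31 measured muscle genes fell, with a median of −5.84. The 15 most negative differences, ranked among called genes averaging 5 RPM or more without a clone name, were all in this list. The fast myosin gene myhz1.1 was at 3.07 and 6.98 RPM in the mutants, against 673 in the library labelled UAS:Nr2f5 and 207 in the control (−6.89 ± 0.41, limma adjusted p = 0.00489), and myhz1.2, a near-identical neighbour with which it may share reads, at 0.233 and 0 against 193. The calcium buffer gene pvalb1 was at 1.35 and 1.28 RPM against 233 (−6.66 ± 0.22, limma adjusted p = 0.00166), and the titin gene ttnb at 14.1 and 8.74 against 914. Muscle genes together held 92.8 and 127 RPM in the mutants, against 9258 in the library labelled UAS:Nr2f5 and 2852 in the control. For 31 of the 31 the control lay between the groups. Of 35 matched muscle genes, 17 were under 1 RPM in mutant 1 and 12 in mutant 2, so the filter raised the count of lower genes.

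All 15 measured lens genes fell, with a median of −4.06, and at that same value with 5 genes at 0 in both mutants set to their 3-read limit. Each of the 19 matched lens genes was under 1 RPM in both mutants, so the filter fixed that direction, though not its size. The crystallin gene crybb1 was at 0.316 and 0.441 RPM in the mutants, against 79.9 in the library labelled UAS:Nr2f5 and 6.04 in the control (−5.88 ± 0.32, limma adjusted p = 0.00455). cryba4 was at 0.259 and 0.132 RPM against 42.5. Lens genes together held 2.47 and 1.102 RPM against 390, with 29.7 in the control. The mutants were thus near 0, and had been selected by an eye defect, whose part in the lens result was not tested. The 5 measured retina genes fell too, among them pax6a (1.98 and 0.176 RPM against 13.6). Of 12 matched retina genes, 10 were under 1 RPM in mutant 1 and 12 in mutant 2, so the filter favoured that direction as well.

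Among 24 epidermal genes, 19 fell and 1 rose, with a median of −3.14. Of 26 matched, 16 were under 1 RPM in mutant 1 and 14 in mutant 2, so the filter raised the count of lower genes here too. The keratin gene krt4 was at 54.2 and 25.1 RPM in the mutants, against 1508 in the library labelled UAS:Nr2f5, with 504 in the control (−5.31 ± 0.44, limma adjusted p = 0.00966). The type I keratin genes cyt1 and cyt1l, alike in sequence, were at 16.5 and 4.23 RPM against 384 and at 14.3 and 3.93 against 336. For these keratins mutant 1 was above mutant 2, and both were far below the other libraries. The gene that rose was krt18, a keratin of simple epithelia that mesenchyme can also hold, at 79.1 and 85.8 RPM against 48.8 (0.74 ± 0.16, limma adjusted p = 0.0387; −0.45 when scaled to arch mesenchyme genes).

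Neural and blood genes fell by less. In neurons 14 of 17 fell, with a median of −2.04, and the RNA-binding protein gene elavl3 was at 5.69 and 5.12 RPM in the mutants, against 63.7 in the library labelled UAS:Nr2f5 and 44.0 in the control (−3.34 ± 0.21). In neural progenitors and glia 9 of 10 fell, with plp1a, a myelin protein gene, at 1.55 and 0.882 RPM against 19.7. Of 23 matched neuron genes 15 and 16 were under 1 RPM in mutants 1 and 2, and of 16 progenitor and glia genes 7 and 10. For tested genes under it in both, the filter set the direction. Of 12 red blood cell genes 7 fell, with a median of −2.20. The embryonic globin gene hbae3 was at 47.2 and 17.4 RPM against 156, and the control, at 195, was above both groups, unlike for muscle and lens. Globin genes are near-identical copies, so the split of reads among them is uncertain.

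Pigment genes gave 7 lower calls and 1 higher among 12. gch2, a pteridine synthesis gene, was at 1.21 and 1.90 RPM in the mutants, against 22.0 in the library labelled UAS:Nr2f5 (−3.19 ± 0.35), while ltk, the receptor gene of iridophore precursors, rose with 1 read in that library and a ratio of 28.6 (exact 95% interval 5.05 to 1135). White blood cell genes fell in 4 of 7. Of 18 matched, 13 were under 1 RPM in each mutant, and of 19 matched pigment genes 14 and 13, so the filter favoured lower calls in both lists. In endothelium 4 of 9 fell, including kdrl, the VEGF receptor gene, at 5.06 and 7.50 RPM against 17.9, and 1 rose, fli1a, which arch mesenchyme also expresses. The defining vessel genes cdh5 (1.35 and 1.59 RPM against 3.75) and pecam1 (0.0862 and 0.661 against 1.28) were low in these libraries, and pecam1 was below the limit for testing. Of 6 autonomic and enteric neuron genes, 2 rose and 0 fell. One of them, hand2, is shared with the ventral list, and the other, phox2bb, was at 11.01 and 10.5 RPM against 2.96 (1.57 ± 0.25, limma adjusted p = 0.0225). Under the arch mesenchyme scaling phox2bb did not pass (0.57), and hand2 was the 1 higher call left in the list.

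The 12 lists of other cell types summed here covered muscle, epidermis, lens, retina, neurons, neural progenitors and glia, pigment cells and red blood cells. They also covered white blood cells, head mesoderm and heart, pharyngeal endoderm and the otic vesicle. Their 215 genes summed to 706 and 628 RPM in the mutants, against 13362 in the library labelled UAS:Nr2f5 and 4853 in the control. As a share of all gene reads this was 0.464% and 0.397% in the mutants, 9.03% in that library and 3.25% in the control. The control thus stood between. It also did so for 802 of the 926 lower calls (86.6%) and for 793 of the 1050 higher calls (75.5%). Among all genes tested, 37.9% had it there. Called genes were selected for a wide gap between the mutants and the library labelled UAS:Nr2f5. A wide gap holds the control more often by construction, so the percentages of calls cannot show that the control is intermediate. Muscle (9258 RPM) and epidermis (2729 RPM) made up most of the sum in the library labelled UAS:Nr2f5. Pharyngeal endoderm was at 9.66 and 10.7 RPM in the mutants against 10.8, and otic vesicle at 12.4 and 13.7 against 8.79. Endothelium (64.1 and 67.7 against 70.7) and autonomic and enteric neurons (64.3 and 57.2 against 15.8) were left out of the sum. In the mutants most of the endothelium sum was fli1a, which arch mesenchyme also expresses. Of 9 measured endothelium genes 4 fell, with a list median of −1.34, so the near-equal sums do not show equal vessel content. The autonomic sum includes hand2, at 34.8 and 23.8 RPM in the mutants against 3.46. The part of other cell types in the differences of arch genes was not tested.

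**Figure D4:**
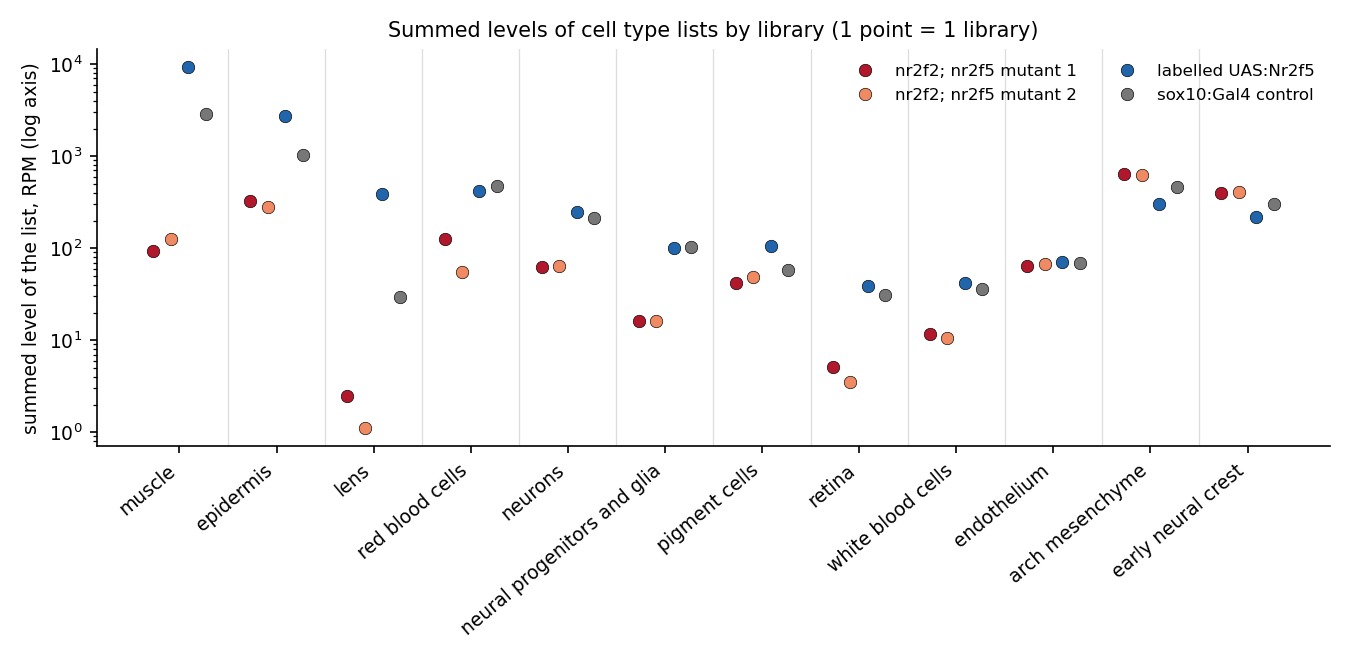
Summed level of each cell type list in each library, in RPM on a log axis, with 1 point per library. Muscle sums to 92.8 and 127 RPM in the mutants, against 9258 in the library labelled UAS:Nr2f5, whereas arch mesenchyme, the second list from the right, is higher in the mutants, at 645 and 631 against 305.

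Because arch mesenchyme genes themselves differed, the libraries were also scaled so that the median ratio of that list was equal. This lowered every difference by 1.21 before the pseudocount, and the median of all genes tested became −0.86. A median-ratio scaling over all genes shifted differences by −0.23. Under the arch scaling 5 of 7 Dlx genes still passed as higher, with a median of 1.95, dlx6a at 3.54 and dlx5a at 2.29. dlx2a, itself a member of the list that set this scaling, no longer passed (0.52, limma adjusted p = 0.0928). dlx1a turned slightly negative (−0.07). hand2 (1.70), nkx3.2 (1.91), barx1 (1.59) and gdf6a (1.65) passed as higher relative to the arch mesenchyme list too. In the joint list trps1 no longer passed (0.20) and irx5a passed as lower (−2.17), so that list had 3 higher calls and 1 lower.

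Ventral arch factors as a list changed sign under that scaling, to a median of −0.49 with 4 higher and 5 lower calls, foxd1 (−0.05), foxf1 (−0.03) and tbx2a (−0.41) being among the genes that turned negative. The upper jaw list went to a median of −0.79 with 0 higher and 7 lower calls. There her6 (−0.09), six1a (−0.20), jag1b (−0.88) and hey1 (−0.79) turned negative, notch2 stayed positive without passing (0.21), and pou3f3b passed as lower (−1.83). Directions for these and the other lists whose medians turned are therefore relative to all reads of a library, not to its arch mesenchyme genes.

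**Figure D5:**
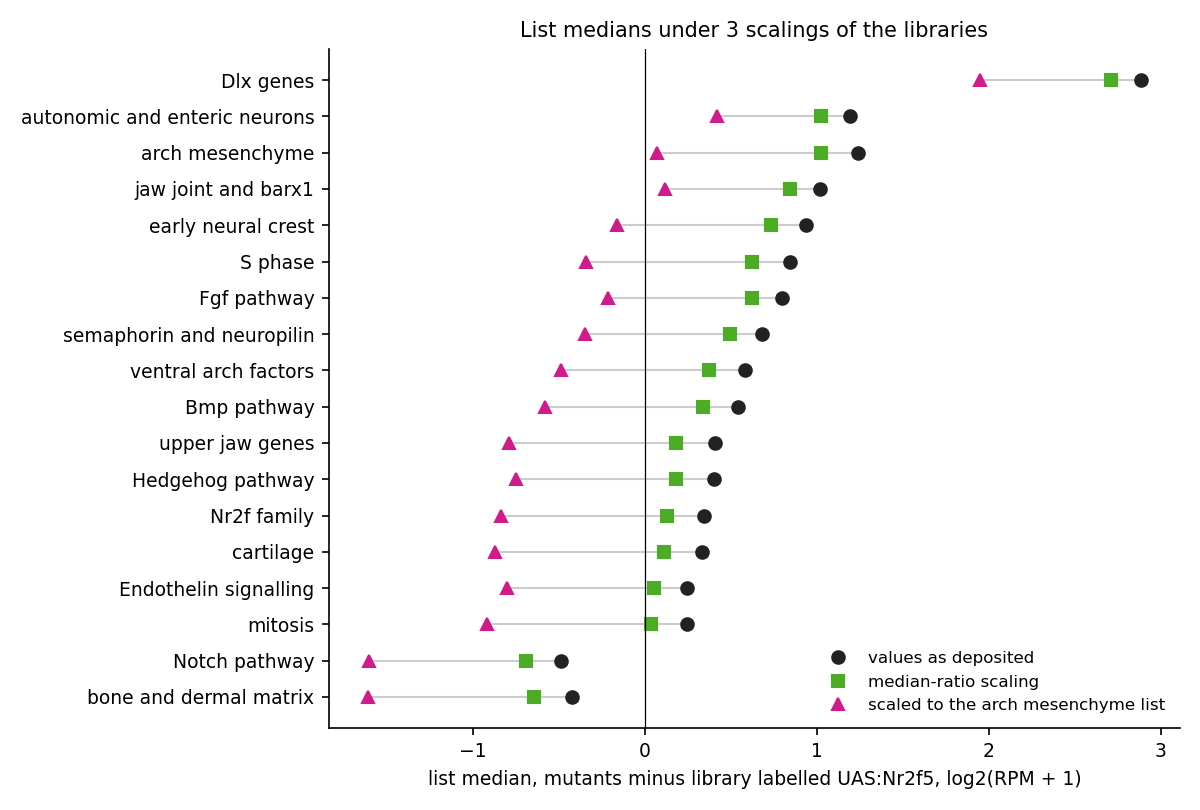
Median difference of 18 gene lists, mutants minus the library labelled UAS:Nr2f5, on the log2(RPM + 1) scale, with values as deposited and under 2 scalings. The Dlx median stays above 0 at 2.89, 2.71 and 1.95, while those of the ventral and upper jaw lists cross 0 when libraries are scaled to arch mesenchyme genes.

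Cartilage genes moved in both directions. Of 20 cartilage genes 5 rose and 3 fell, with a median of 0.33 (1 higher, 11 lower and −0.87 under the arch mesenchyme scaling). sox9a, the master regulator of cartilage, was at 68.5 and 83.0 RPM in the mutants, against 21.4 in the library labelled UAS:Nr2f5 (1.77 ± 0.19, limma adjusted p = 0.0122), and its partner sox5 at 136 and 135 against 43.6 (1.61 ± 0.16). The collagen genes col9a1b (3.33 and 0.265 RPM against 19.7), col11a1a (37.5 and 34.8 against 108) and col9a2 (15.2 and 12.7 against 29.0) fell, whereas col9a1a rose, at 12.5 and 15.6 against 6.22 (1.05; −0.04 when scaled to arch mesenchyme genes). In the list of bone and dermal matrix, 1 of 13 rose and 2 fell, with a median of −0.42 (0 higher, 10 lower and −1.61 under the arch mesenchyme scaling). The 1 higher call in bone and dermal matrix was near the share of all genes tested that rose, 9.25%. col1a1b was at 34.2 and 35.8 RPM against 221 (−2.62 ± 0.16, limma adjusted p = 0.00489) and col1a2 at 172 and 182 against 324, while col5a1 rose, at 194 and 228 against 111 (0.91; −0.29 under the arch scaling). Skin and muscle connective tissue make type I collagen too, and the part of such cells was not tested.

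In the frontonasal and anterior identity list 2 of 12 rose and 2 fell, with a median of −0.61 (1 higher, 8 lower and −1.63 under the arch mesenchyme scaling). sim2, a bHLH-PAS factor gene, was at 13.6 and 11.8 RPM in the mutants, 1.18 in the library labelled UAS:Nr2f5 and 10.02 in the control (2.64 ± 0.27, limma adjusted p = 0.0121), and lhx6, a LIM homeobox gene, at 24.2 and 19.4 against 6.71 (1.56 ± 0.22). Among the lower genes was the forebrain gene foxg1a, chosen after its values were seen, at 0.345 and 0 RPM in the mutants, against 8.10 in the library labelled UAS:Nr2f5. Hox genes of the posterior arches gave 0 limma calls among 9, with 2 at an unadjusted p under 0.05. Under median-ratio scaling 1 passed as lower, and under the arch mesenchyme scaling 3, with a list median of −0.99. hoxa2b, the selector of the second arch, was at 9.57 and 5.16 RPM against 6.62, so that the library labelled UAS:Nr2f5 lay inside the mutant pair, and hoxb3a at 9.80 and 10.01 against 18.4 (−0.83, limma adjusted p = 0.0506).

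Cell cycle genes were read as S phase and mitosis lists, and the difference between those lists was not tested. Of 29 S phase genes 9 rose and 0 fell, with a median of 0.84, which became −0.34 under the arch mesenchyme scaling (1 higher, 6 lower). The polymerase gene pola1 was at 34.6 and 32.2 RPM in the mutants, against 10.1 in the library labelled UAS:Nr2f5 (1.64 ± 0.17, limma adjusted p = 0.0122), the helicase gene mcm3 at 50.4 and 54.4 against 19.7 (1.36 ± 0.16), and tyms, for thymidylate synthesis, at 7.47 and 8.07 against 1.38. For tyms the control, at 8.48 RPM, was above both mutants. Of 28 mitosis genes 2 rose, top2a and ccna2, with a median of 0.25 (−0.92 under that scaling, which turned top2a and ccna2 to −0.26 and −0.27). Those 2 calls were near the share of all genes tested that rose, 9.25%. Under the arch mesenchyme scaling mitosis had 0 higher and 17 lower calls. Median-ratio scaling left 3 higher calls in S phase and 0 in mitosis. The condensin gene ncaph2, among the 15 largest rises, was at 8.65 and 9.70 RPM against 0.494, with 6.45 in the control.

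Handling of cells can induce immediate early and heat shock genes. In that list 0 of 23 rose and 2 fell, with a median of −0.01 (0 higher, 20 lower and −1.13 under the arch mesenchyme scaling). The 2 lower calls were near the share of all genes tested that fell, 8.16%. nr4a1, an immediate early gene, was at 7.59 and 7.89 RPM in the mutants, against 28.3 in the library labelled UAS:Nr2f5 (−1.75 ± 0.20, limma adjusted p = 0.0126), and ier2b at 10.7 and 13.6 against 25.7 (−1.03). The heat shock genes hsp70l (8.47 and 5.93 RPM against 2.80) and hsp70.1 (5.12 and 4.03 against 11.4) lay on opposite sides without passing. Genes of glycolysis fell in 11 of 19 and rose in 0, with a median of −1.66. Of 21 matched, 8 were under 1 RPM in each mutant, and the filter favoured lower calls among such genes. The aldolase gene aldoab was at 0.834 and 0.706 RPM against 68.3, and gapdh at 0.920 and 0.970 against 64.5, with 22.5 and 20.6 in the control. aldoab, eno3 (6.93 and 7.32 RPM against 50.3) and pkmb (0.0287 and 0 against 22.7) are strongly expressed in muscle, whose genes moved with them, and that part was not tested.

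Other genes among the 15 largest rises fall outside these lists. The septin gene sept8a was at 9.89 and 15.3 RPM in the mutants, against 0.889 in the library labelled UAS:Nr2f5 and 8.88 in the control (2.82 ± 0.35, limma adjusted p = 0.0140). map1sa, a microtubule-associated protein gene, was at 9.11 and 14.02 RPM against 0.889 (2.71 ± 0.36), and f3b, a tissue factor gene of coagulation, at 14.9 and 14.8 against 1.68 (2.56 ± 0.24). Not among those 15, but in the otic vesicle list, was oc90, a gene for a protein of the ear stones. It was the only one of 5 otic genes to pass, at 7.19 and 7.72 RPM against 0.790 (2.24 ± 0.32, limma adjusted p = 0.0180).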

How the data were processed

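Arch cells sorted from pooled embryos were sequenced as 75-bp paired ends, per the labels' protocols. The submitters' processing notes name the GRCz10 assembly, Partek and TopHat2, without versions. The RPM values were made by the authors, who deposited them as 1 table named as TPM. They were taken as reads per 1000000, with no division by length, because low values in a library are multiples of 1 step whatever the gene. Within 0.02 read, 88.4%, 90.4% and 94.0% of values were whole multiples in mutant 1, mutant 2 and the library labelled UAS:Nr2f5, and 89.4% in the control. This is too few for a test on counts. The planned log-scale test serves both units. 1 read was worth 0.0287, 0.0441, 0.0987 and 0.0334 RPM in the same order, and gene reads summed to 14.8% to 15.8% of the scale. Each of the 4 value columns belongs to a library.

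limma 3.58.1 in R 4.3.3 (lmFit, then eBayes with a trend) was fitted to log2(RPM + 1) of the 2 mutants and the library labelled UAS:Nr2f5, for the 11349 genes averaging 1 RPM or more. It had 1 residual degree of freedom (median prior degrees of freedom 4.16). Tests were two-sided with Benjamini-Hochberg adjustment and a threshold of 0.05. The fit was also tried on simulated libraries given the same added spread. Such data cannot check whether the library labelled UAS:Nr2f5 varies like the mutants. Differences on this scale understate the change of low genes. Intervals are exact Clopper-Pearson at 95%, and with the 3-read limits they cover counting error only, since PCR copies are not independent molecules.

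The 38 gene lists hold 697 distinct genes, of which 682 matched the table, 18 through a reference table of names. The comparison, lists and naming rule were chosen with earlier results of these data known. Lists are described by counts and medians, with no set test. A few members enter these counts and medians but are not reported here by name. The rule names Nr2f, Dlx and arch patterning genes, the 15 largest differences each way among called genes averaging 5 RPM or more, and up to 6 members of other lists by size with those against the list. Genes with a clone name were left out of the 15. Alternatives changed the pseudocount, filter, scaling, trend, libraries in the fit and mutant replicates. Python 3.11.15 with pandas 2.3.3 and scipy 1.17.1 was used for tables.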

Additional observations from a re-analysis of the deposited data

How the results depend on the processing

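No paired analysis was possible because the gain side has 1 library and the labels pair none. As deposited, 1976 genes passed limma (1050 higher, 926 lower in the mutants) and 2145 were 2-fold apart in both mutants. With no filter 0 of 21253 passed (0 higher, 0 lower), 1771 were 2-fold lower, the median of all genes was 0.079 and the Dlx and jaw joint medians 2.58 and 0.71. A pseudocount of 0.5 moved the Dlx, joint and muscle medians to 3.14, 1.12 and −6.14. A pseudocount of 5 gave 492 genes at 2-fold (138 higher, 354 lower), an all-gene median of 0.10, and medians of 1.45 for Dlx, 0.46 for ventral, 0.71 for joint, 0.95 for arch mesenchyme and −4.65 for muscle genes. It split the calls into 903 higher and 1094 lower. With a mean of at least 5 RPM, 1450 of 5293 genes passed as higher and 447 as lower, 647 were at 2-fold (403 higher, 244 lower), and the all-gene, ventral, joint and muscle medians were 0.29, 0.79, 2.69 and −6.09. The smallest limma adjusted p of that fit was 9.3e-199, against 0.0017 as deposited, and only 912 of its 1897 calls also passed as deposited. Its call counts are therefore not comparable with those of the main fit. Without the trend 1234 passed (494 higher, 740 lower). Equal sums gave an all-gene median of 0.11 and medians of 0.52 for ventral, 0.97 for joint and 1.18 for arch mesenchyme genes. Median-ratio scaling gave 603 higher calls and medians of −0.019 for all, 2.71 for Dlx, 0.38 for ventral, 0.85 for joint, 0.18 for upper jaw and 1.03 for arch mesenchyme genes. Scaling to arch mesenchyme genes gave 6241 calls (412 higher, 5829 lower), 4261 genes at 2-fold (288 higher, 3973 lower), and medians of −0.86 for all, 1.95 for Dlx, −0.49 for ventral, 0.12 for joint, −0.79 for upper jaw, 0.069 for arch mesenchyme and −7.00 for muscle genes.

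Leaving out a mutant leaves no test. The count at 2-fold then ranged from 2786 to 3042 (higher 1403 to 1558, lower 1383 to 1484), since 1 mutant meets the rule more easily than both. The all-gene median ranged from 0.16 to 0.19, the Dlx median from 2.77 to 2.97, ventral from 0.59 to 0.67, joint from 1.13 to 1.17, arch mesenchyme from 1.09 to 1.18, upper jaw from 0.20 to 0.42 and muscle from −5.99 to −5.66.

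Over 216 genes covered by the naming rule and 33 more that the text names, a gene counts as reversed where its sign changes and it passes limma in either fit. By that measure 46 of the 249 reversed when scaled to arch mesenchyme genes and 0 under the other settings; genes that changed sign without passing either time are not counted. The 46 were axin2 (−0.72), ccna2 (−0.27), cdon (−0.67), col5a1 (−0.29), col6a2 (−0.36), col9a1a (−0.040), dcn (−0.62), dlx1a (−0.072), dusp6 (−0.20), etv5b (−0.044), eya1 (−0.99), fgfr1a (−0.15), fgfr2 (−0.79), fgfr4 (−1.14), foxd1 (−0.052), foxf1 (−0.026), gli2a (−0.054), gli2b (−0.069), gna11b (−0.73), her6 (−0.088), hey1 (−0.79), id1 (−0.20), id2a (−0.075), itgb1a (−0.24), jag1b (−0.88), krt18 (−0.45), lef1 (−0.95), mcm2 (−0.26), mmp14b (−0.11), nr2f1a (−0.79), nr2f1b (−0.33), nr2f2 (−0.88), nr2f6a (−1.10), pdgfra (−0.21), pou3f3a (−0.88), prrx1a (−0.33), prrx1b (−0.77), rarga (−0.31), sema3ab (−0.14), six1a (−0.20), skia (−0.84), snai1a (−0.0026), tbx2a (−0.41), tgfbi (−0.43), thbs1b (−0.22) and top2a (−0.26). That scaling lowers all differences by construction, and pdgfra, prrx1a and prrx1b are among the genes that set it. For the other settings the cause of a change was not tested. Besides the 46 that reversed, the arch mesenchyme scaling took the call from 29 genes that kept their sign and gave one to 26. Without the trend 59 of the 249 lost their call, without the filter 171, and under median-ratio scaling 20. The library labelled UAS:Nr2f5 is shallowest, so a gene at 0 there may reach 0.296 RPM.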

Other observations

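Some gene families outside the lists were grouped by symbol, and their examples picked, after their values were seen. Over all genes tested 9.25% rose and 8.16% fell. Of 18 nucleoporin genes, which encode the nuclear pore, 8 rose and 0 fell in the mutants relative to the library labelled UAS:Nr2f5, with a median of 0.71 on the log2(RPM + 1) scale (1 higher, 8 lower and −0.48 when scaled to arch mesenchyme genes). nup35 was at 5.23 and 5.69 RPM in the mutants, against 0.691 in that library, and nup153 at 28.4 and 36.6 against 13.3. Of 36 SR and hnRNP entries, for splicing factors, 8 rose and 0 fell, with a median of 0.50 (1 higher, 20 lower and −0.69 under that scaling), among those that rose srsf3b (38.1 and 44.4 RPM against 15.3). Also among the 8 was the lower entry under the symbol srsf3a (2.35 and 2.41 RPM against 0.219). The other srsf3a entry (10.5 and 14.3 RPM against 10.2) did not pass. Genes of cytosolic ribosomal proteins and their close paralogues gave 0 calls among 75 by limma, with 8 at an unadjusted p under 0.05 and a median of 0.29, whereas 72 passed as lower under that scaling (−0.91).

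Matrix and adhesion families differed in the direction of their calls. Of 4 membrane-type metalloprotease genes 3 rose, mmp15a (9.06 and 10.6 RPM in the mutants, 1.18 in the library labelled UAS:Nr2f5), mmp14a (20.6 and 20.2 against 6.32) and mmp14b (34.0 and 34.9 against 16.1), of which 1 passed under that scaling. Of 5 type VI collagen entries 3 rose, col6a1, col6a2 and col6a6 (91.2 and 91.7 RPM against 23.6), and 1 fell, which is 1 of the 2 entries under the symbol col6a3. Of 4 type IV genes, for basement membranes, 0 rose and 2 fell, col4a1 and col4a2. Of 36 cadherin and protocadherin entries 5 rose and 10 fell. Some protocadherin entries held values above 0 but far below that of 1 read, so the split of reads among them is uncertain. The cadherin gene cdh6, which crest cells use, was at 60.5 and 66.3 RPM against 15.5, and the epithelial cadherin gene cdh1 at 0.661 and 1.41 against 10.1. Of 17 integrin genes 1 rose, itgb1a, and 3 fell, itga3b, itgb3a and itgb4. itga3b (0.172 and 0.132 RPM against 3.75) and itgb3a (0 and 0 against 3.75) were tested only through the library labelled UAS:Nr2f5, so the filter set their direction. The same held for several cadherin entries that fell, among them cdh15 and pcdh11. The 1 higher integrin call was near the share of all genes tested that rose, 9.25%. Under that scaling the higher and lower calls were 1 and 2 for type VI collagen, 0 and 4 for type IV, 3 and 21 for cadherins and 0 and 13 for integrins. itgb4, of epithelial hemidesmosomes, was at 1.58 and 1.23 RPM against 12.3. Epidermal genes, summed, were at 327 and 280 RPM in the mutants, against 2729 in the library labelled UAS:Nr2f5, and their part in these values was not tested.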
